A study of Mus musculus with 5 samples.

Results

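The genes described here carry the class I branch of antigen presentation in newborn mouse liver: the heavy chains H2-K1, H2-D1 and H2-T23, the light chain gene B2m, the peptide pump genes Tap1 and Tap2, the loading factors Tapbp and Tapbpl, the trimming peptidase Erap1 and the transactivator Nlrc5. They were chosen by gene symbol, with earlier results of these data known, so their direction is no independent evidence. All 10 symbols matched 1 row each among 36401 rows of the count tables, and all 10 passed the filter on low counts. The data compare livers of Mdr2+/- mice, which carry a single working copy of Mdr2, with livers of their Mdr2+/+ (wild-type) littermates. All animals were of the BALB/C strain, into which the Mdr2 null allele had been backcrossed, and all were killed on day 10 of life. RNA of lobe 1 of the liver was sequenced in 3 Mdr2+/- and 2 Mdr2+/+ libraries. Mdr2 is the older name of Abcb4, the phosphatidylcholine floppase of the hepatocyte's bile canaliculus, and the heterozygous state is a germline one, present in every cell of the liver. The study's title ties low ABCB4 to inflammation in biliary atresia, so the comparison asks how liver transcripts differ when an allele is missing.

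Class I molecules show short peptides from inside the cell to CD8 T cells and natural killer cells. Proteasomes cut proteins in the cytosol, the TAP transporter pumps the peptides into the endoplasmic reticulum, and tapasin and chaperones help an empty heavy chain, paired with beta-2-microglobulin, to bind one. Nearly all nucleated cells make class I molecules, hepatocytes at a low level, and interferons raise the whole set, in part through IRF1 and NLRC5.

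Library totals ran from 12991301 to 17312851 estimated counts in Mdr2+/- and from 11944157 to 14644529 in Mdr2+/+ livers. Abcb4 itself averaged 97.0 ± 4.07 normalised CPM (library-scaled counts, by the trimmed mean of M-values) in Mdr2+/- livers and 162 ± 0.0278 CPM in Mdr2+/+ livers (SD, n = 3 and 2), and was lower in each Mdr2+/- library than in both Mdr2+/+ libraries, as the labels have it (log2 fold change -0.74, SE 0.06, adjusted p = 0.000336 in edgeR). Across 13959 tested genes, 1680 differed (12.0%), 925 higher and 755 lower in Mdr2+/- livers. Scaling by library size alone gave 704 higher and 936 lower. Nothing in the labels ties every library to its own pup. The p-values thus cover the spread among these 5 libraries, which may be technical. Hepatocyte genes were strongly expressed in every library, which fits the labelled tissue. Over 10 defining genes the summed level was 172532 to 186828 CPM in Mdr2+/- and 161074 to 175288 CPM in Mdr2+/+ livers.

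Promoters of 5 of the genes are shown first, because H2-K1, H2-D1, B2m, Tap1 and H2-T23 span the range from a marked fall to no detectable difference. RefSeq sequences (GRCm38.p6, from 250 bases before to 50 after the RefSeq gene start) matched 7 of the 10 genes, without Tap2, Tapbpl and Nlrc5. Of 2 windows for H2-K1, 1 is shown. For H2-D1, H2-T23, Erap1 and Tapbp the RefSeq start lies inside the annotated gene span given below. Each sequence reads 5′ to 3′ on the gene's strand, with capitals marking 5 searched motifs on either strand. These are 2 forms of an interferon-stimulated response element (GAAA, any 2 bases and GAAA, and a shorter one of GAA, any 2 bases and GAAA), a kappaB site (GGGG, any base and TTCCCC), the core of the X2 or cyclic AMP response box (TGACG) and the CCAAT box (CCAAT).
H2-K1 (chr17:34000298-34000597, minus strand): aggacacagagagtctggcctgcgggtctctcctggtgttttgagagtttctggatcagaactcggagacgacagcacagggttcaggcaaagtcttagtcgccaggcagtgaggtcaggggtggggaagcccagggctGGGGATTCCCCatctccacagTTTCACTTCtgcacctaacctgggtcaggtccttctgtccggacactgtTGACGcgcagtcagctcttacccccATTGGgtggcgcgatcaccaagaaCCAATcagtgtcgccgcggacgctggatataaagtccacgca
H2-D1 (chr17:35262844-35263143, plus strand): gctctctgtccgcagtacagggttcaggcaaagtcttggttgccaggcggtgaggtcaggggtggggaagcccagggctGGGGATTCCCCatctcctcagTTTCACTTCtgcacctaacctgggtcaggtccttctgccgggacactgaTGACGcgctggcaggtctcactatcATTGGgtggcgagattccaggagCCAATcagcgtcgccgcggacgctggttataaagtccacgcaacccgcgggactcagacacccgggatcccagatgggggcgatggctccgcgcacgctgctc
B2m (chr2:122147437-122147736, plus strand): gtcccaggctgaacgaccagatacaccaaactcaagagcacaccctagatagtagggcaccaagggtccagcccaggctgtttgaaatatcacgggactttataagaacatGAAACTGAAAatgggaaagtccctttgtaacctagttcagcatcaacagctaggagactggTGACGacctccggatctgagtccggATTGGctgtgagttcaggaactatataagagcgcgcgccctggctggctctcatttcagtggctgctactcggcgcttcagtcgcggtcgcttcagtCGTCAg
Tap1 (chr17:34187306-34187605, plus strand): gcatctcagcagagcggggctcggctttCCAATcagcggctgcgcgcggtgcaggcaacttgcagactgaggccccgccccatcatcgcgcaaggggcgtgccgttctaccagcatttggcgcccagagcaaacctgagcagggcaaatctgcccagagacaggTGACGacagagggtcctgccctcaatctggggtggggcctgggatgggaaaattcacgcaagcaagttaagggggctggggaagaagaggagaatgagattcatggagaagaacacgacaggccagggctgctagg
H2-T23 (chr17:36032652-36032951, minus strand): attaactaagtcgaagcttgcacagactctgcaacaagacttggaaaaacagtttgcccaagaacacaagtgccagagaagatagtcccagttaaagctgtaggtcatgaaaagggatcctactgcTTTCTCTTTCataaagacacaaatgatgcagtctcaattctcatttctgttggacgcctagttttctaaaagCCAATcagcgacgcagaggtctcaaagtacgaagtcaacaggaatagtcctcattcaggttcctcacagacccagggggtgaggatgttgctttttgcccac

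The H2-K1 and H2-D1 windows held the same ordered run of a kappaB site, a short response element, an X2 core and CCAAT boxes. Shifted by 60 bases against each other, they were identical at 176 of 240 positions (73.3%). The kappaB letters occur in 44 of 32851 promoter windows (0.134%), the short response element in 7.52%, the X2 core in 20.8% and the CCAAT box in 37.4%. The longer response element (3.44% of windows) was present in B2m, 139 bases before its RefSeq start. It was also in H2-T23, 124 bases before that gene's RefSeq start, and in Erap1, 4 bases before its RefSeq start. Neither form was in the Tap1 or Tapbp window. A match describes letters and is not a site, and no match says only that these letters are not in the window. The Tap1 window shares 275 bases with that of Psmb9, the immunoproteasome subunit gene transcribed in the opposite direction. Both genes were lower in Mdr2+/- livers.

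Class I presentation genes were lower in Mdr2+/- livers: 7 of 10 fell and 0 rose. The percentage of all tested genes that fell was 5.41%, and 6.63% rose. The 7 were B2m, H2-D1, Tap1, Tap2, Tapbp, Tapbpl and Nlrc5, with falls of 0.39 to 1.17 on the log2 scale. H2-K1, Erap1 and H2-T23 did not pass. All 10 fold changes were negative, with a median of -0.51 against -0.0025 over all tested genes, and in 9 of 10 every Mdr2+/- library lay below both Mdr2+/+ libraries, against 22.7% of tested genes. Tests are the quasi-likelihood test of edgeR, two-sided, Benjamini-Hochberg adjusted across the 13959 genes, at a threshold of 0.05. In whole tissue, fewer cells that express a gene and less RNA per cell cannot be told apart.

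**Figure D1:**
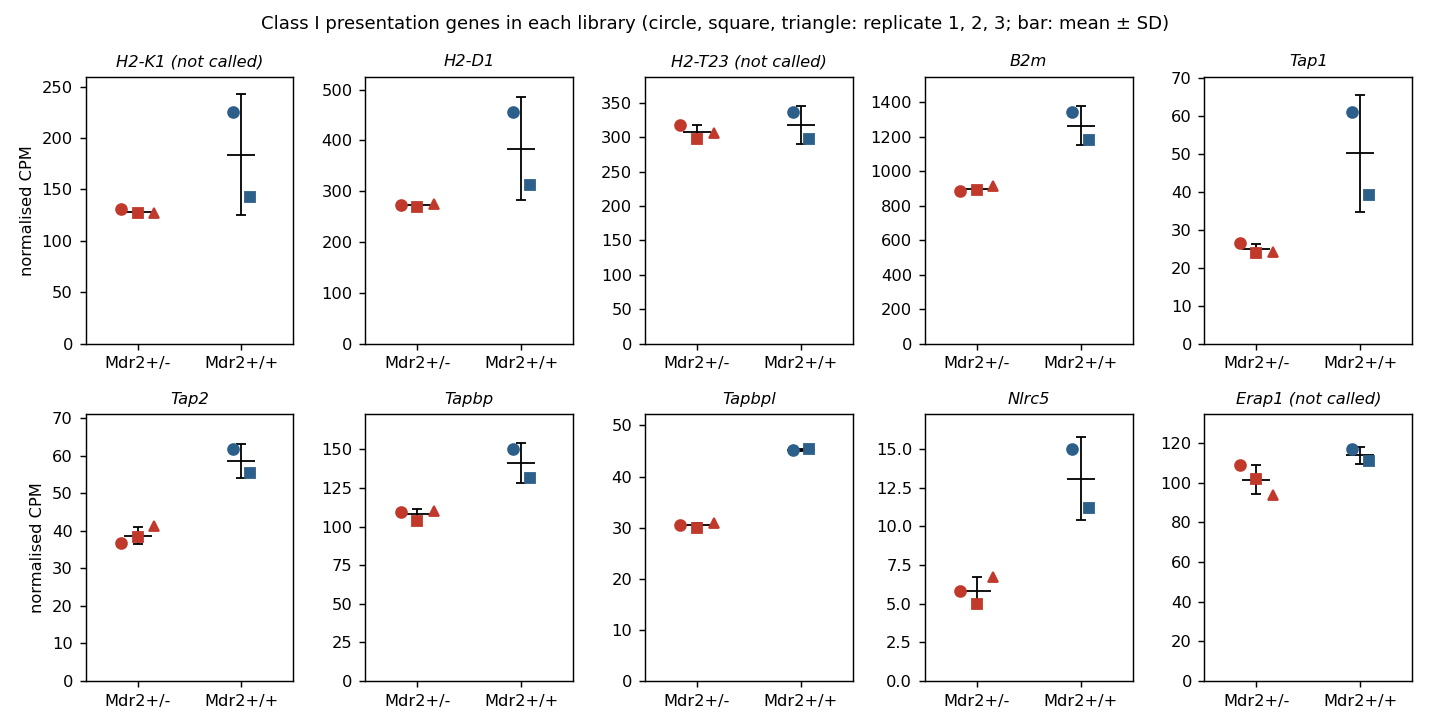
Normalised CPM of the 10 genes in each library, Mdr2+/- (red) left of Mdr2+/+ (blue), each panel on its own axis from 0, with the mean and SD as bars. The Mdr2+/- points lie close together, while Mdr2+/+ replicate 1 (circle) stands above replicate 2 (square) in 9 of 10 panels.

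The heavy chain genes behaved unequally. H2-D1 (ENSMUSG00000073411, chromosome 17, 35262730 to 35267499, plus strand, mm10) encodes a classical heavy chain found on most cells. It measured 274, 269.7 and 274 CPM in the Mdr2+/- livers, against 456 and 312 CPM in the Mdr2+/+ livers. The groups did not overlap, and the 3 Mdr2+/- values were almost equal, while the Mdr2+/+ values differed by 1.46-fold. H2-D1 fell (273 ± 2.50 CPM in Mdr2+/- and 384 ± 102 CPM in Mdr2+/+ livers, log2 fold change -0.50, SE 0.13, adjusted p = 0.0346 in edgeR). This call was a narrow one. It held in 6 of 13 alternative analyses and was lost without Mdr2+/+ replicate 1 (log2 fold change -0.20, adjusted p = 0.151), without any single Mdr2+/- library (0.0719 to 0.0928), and in DESeq2 (0.108).

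H2-K1 (ENSMUSG00000061232, chromosome 17, 33996017 to 34000347, minus strand), also a classical heavy chain gene, had the same outline at a lower level. It measured 131, 127 and 127 CPM in the Mdr2+/- livers, against 225 and 142 CPM in the Mdr2+/+ livers. Both Mdr2+/+ values were above all Mdr2+/- values, but replicate 2 only just. Its log2 fold change of -0.52 (SE 0.15) missed the threshold (adjusted p = 0.0509 in edgeR). H2-K1 shows the widest gap between the Mdr2+/+ libraries among the 10 genes (1.58-fold), and its log2 fold change was -0.15 (adjusted p = 0.262) without Mdr2+/+ replicate 1 and -0.81 (adjusted p = 0.000681) without replicate 2.

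H2-T23 (ENSMUSG00000067212, chromosome 17, 36029773 to 36032855, minus strand) encodes Qa-1, a non-classical class I molecule that presents leader peptides of other class I chains to the CD94 and NKG2 receptors of natural killer cells. It measured 318, 298 and 306 CPM in the Mdr2+/- livers, against 337 and 298 CPM in the Mdr2+/+ livers. The groups overlapped, and no difference was detectable (log2 fold change -0.048, SE 0.07, adjusted p = 0.71 in edgeR; 0.039 without Mdr2+/+ replicate 1). The ratio of H2-T23 to H2-D1 counts was 1.16, 1.10 and 1.12 in the Mdr2+/- livers, against 0.738 and 0.956 in the Mdr2+/+ livers, so every Mdr2+/- library was above both Mdr2+/+ libraries. The ratio of H2-K1 to H2-D1 overlapped between the groups, with 0.463 to 0.478 in Mdr2+/- and 0.456 and 0.494 in Mdr2+/+ livers.

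Heavy chain counts carry a limit of their own. BALB/c mice carry other H2 alleles than the C57BL/6J reference genome, so reads of the polymorphic exons may align less well, in both genotypes. Of all 50-base words in the longest reference transcript, 8.11% in H2-K1, 14.3% in H2-D1 and 15.0% in H2-T23 also occur in transcripts of another gene, against 0 to 3.52% in the other 7 genes. The assignment of reads among heavy chain genes is therefore uncertain. The words were sought in reference transcripts only, so a gene that the reference lacks is not covered. Of the other heavy chain genes looked for, H2-L, H2-Q1, H2-Q4 and H2-Q9 matched no row.

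B2m (ENSMUSG00000060802, chromosome 2, 122147686 to 122153083, plus strand) encodes beta-2-microglobulin, the invariant light chain shared by all class I heavy chains described here. It measured 888, 893 and 913 CPM in the Mdr2+/- livers, against 1344 and 1182 CPM in the Mdr2+/+ livers. No Mdr2+/- library came near a Mdr2+/+ library. B2m fell to 71.1% of the Mdr2+/+ level (log2 fold change -0.49, SE 0.07, adjusted p = 0.00298 in edgeR), and the call held in 13 of 13 alternatives. The smallest fall among these alternatives came with the offset for transcript length (log2 fold change -0.33, adjusted p = 0.0230 in edgeR). B2m has no 50-base word in common with another gene's transcript, and strain differences in its sequence were not tested.

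The peptide pump genes fell. Tap1 (ENSMUSG00000037321, chromosome 17, 34187553 to 34197225, plus strand) encodes a subunit of the TAP transporter. Its levels were 26.5, 23.98 and 24.2 CPM in the Mdr2+/- livers, against 61.2 and 39.3 CPM in the Mdr2+/+ livers. Every Mdr2+/- value was below both Mdr2+/+ values, and the Mdr2+/+ values differed by 1.56-fold. Tap1 fell to 49.1% of the Mdr2+/+ level (log2 fold change -1.02, SE 0.15, adjusted p = 0.00389 in edgeR). Without Mdr2+/+ replicate 1 the log2 fold change was -0.66 and still passed (adjusted p = 0.0111). Tap1 overlaps Psmb9 on the opposite strand, and whether the counting used strand is not given in the sources used here, so a part of its reads is uncertain.

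Tap2 (ENSMUSG00000024339, chromosome 17, 34203527 to 34216321, plus strand) encodes the partner subunit. It measured 36.7, 38.3 and 41.2 CPM in the Mdr2+/- livers, against 61.7 and 55.3 CPM in the Mdr2+/+ livers. Here the Mdr2+/+ libraries lay close together and well above the Mdr2+/- ones (log2 fold change -0.59, SE 0.08, adjusted p = 0.00208 in edgeR). The ratio of Tap1 to Tap2 counts was 0.724, 0.626 and 0.588 in Mdr2+/- livers, against 0.991 and 0.711 in Mdr2+/+ livers, and these ranges overlapped.

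Both tapasin family genes were lower. Tapbp (ENSMUSG00000024308, chromosome 17, 33915899 to 33929292, plus strand) encodes tapasin, which bridges TAP and the empty heavy chain. It measured 109, 104 and 110.4 CPM in the Mdr2+/- livers, against 150.1 and 132 CPM in the Mdr2+/+ livers. The groups did not overlap, and Tapbp fell (log2 fold change -0.39, SE 0.07, adjusted p = 0.0100 in edgeR), although not without Mdr2+/+ replicate 1 (log2 fold change -0.29, adjusted p = 0.067). Tapbp shares its locus with Zbtb22 on the same strand, which had 1291 counts over the 5 libraries.

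Tapbpl (ENSMUSG00000038213, chromosome 6, 125223933 to 125231860, minus strand) encodes TAPBPR, a tapasin relative that edits the bound peptides outside the loading complex. It measured 30.5, 30.0 and 31.0 CPM in the Mdr2+/- livers, against 45.1 and 45.3 CPM in the Mdr2+/+ livers. Among the 10 genes it alone had a Mdr2+/+ replicate 1 that was not above replicate 2, with a ratio of 0.995. It had the smallest adjusted p of the set (log2 fold change -0.57, SE 0.06, adjusted p = 0.00111 in edgeR), and leaving out single libraries moved the fold change only between -0.58 and -0.56.

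Nlrc5 (ENSMUSG00000074151, chromosome 8, 94434356 to 94527272, plus strand) encodes the transactivator of class I promoters, which acts with the RFX factors at the X box. It measured 5.81, 4.98 and 6.75 CPM in the Mdr2+/- livers, against 15.0 and 11.2 CPM in the Mdr2+/+ livers. The groups were far apart for so low a level, and Nlrc5 had the largest fall of the 10 genes (44.4% of the Mdr2+/+ level, log2 fold change -1.17, SE 0.17, adjusted p = 0.00323 in edgeR). It was also the least precise in Mdr2+/- livers, with a coefficient of variation of 15.1%, at 74 to 227 counts per library. The other 9 genes varied by 0.916 to 7.26% among the Mdr2+/- libraries.

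Erap1 (ENSMUSG00000021583, chromosome 13, 74639568 to 74693201, plus strand) encodes the aminopeptidase that trims peptides in the endoplasmic reticulum to class I length. It measured 109, 102 and 93.9 CPM in the Mdr2+/- livers, against 117 and 111 CPM in the Mdr2+/+ livers. The groups did not overlap but the gap was smaller than the spread among the Mdr2+/- libraries (log2 fold change -0.17, SE 0.07, adjusted p = 0.168 in edgeR). Erap1 was called in 0 of 13 alternatives. It overlaps Cast on the opposite strand.

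**Figure D2:**
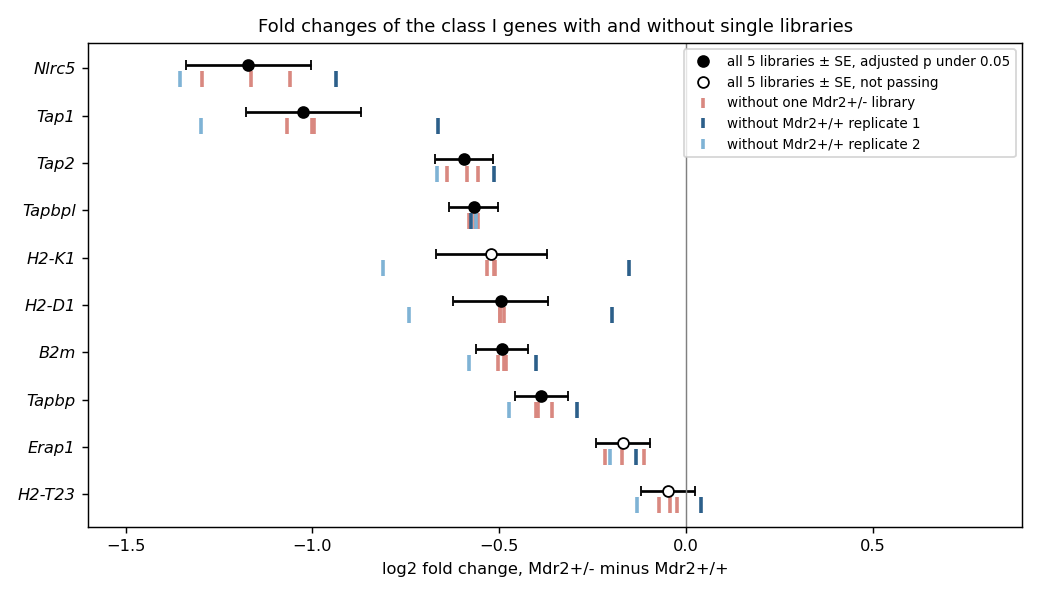
Log2 fold change (Mdr2+/- minus Mdr2+/+) of each gene with its SE, filled where the adjusted p is under 0.05, and, as ticks below, the fold change with each library left out in turn. For H2-K1 and H2-D1 the values without Mdr2+/+ replicate 1 lie nearest 0, at -0.15 and -0.20, while Tapbpl hardly moves.

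The Mdr2+/+ libraries differed from each other in this pathway. Replicate 1 was above replicate 2 in 9 of 10 genes, against 49.7% of all tested genes, with a median log2 ratio of 0.19 for the 10 genes and -0.0011 for all. Of the 7 calls, 5 remained without replicate 1 (B2m, Tap1, Tap2, Tapbpl and Nlrc5), and 8 genes were called without replicate 2. Summed markers of several blood lineages were also higher in replicate 1 than in replicate 2. Kupffer cell and macrophage markers summed to 506 to 583 CPM in the Mdr2+/- libraries, against 724 CPM in Mdr2+/+ replicate 1 and 505 CPM in replicate 2. T and natural killer cell markers summed to 20.8 to 22.4 CPM in Mdr2+/- livers, against 30.0 and 21.1 CPM in the same Mdr2+/+ libraries. Neutrophil markers (355 to 452 CPM in Mdr2+/- livers, against 164 and 114 CPM), B cell markers (40.8 to 49.4 CPM, against 22.4 and 16.3 CPM), erythroid markers (904 to 988 CPM, against 1878 and 1517 CPM) and dendritic cell markers (10.4 to 12.1 CPM, against 13.1 and 12.3 CPM) had the same order of replicates. Sinusoidal endothelial, cholangiocyte and hepatocyte markers had the opposite order. The part of these cells in the class I values was not tested.

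Scaled to transcript length, B2m far exceeded every other gene, at 1044 ± 15.6 CPM per kb in Mdr2+/- and 1469 ± 133 CPM per kb in Mdr2+/+ livers. In Mdr2+/- livers H2-D1 (130 ± 1.19 CPM per kb) stood above H2-T23 (116 ± 3.84), and H2-T23 above H2-K1 (68.5 ± 1.17), with no overlap. The order of H2-D1 and H2-T23 depends on the length used, here 2102 and 2642 bases for the longest transcripts. Without length scaling, H2-T23 (307 CPM) stood above H2-D1 (273 CPM) in Mdr2+/- livers. In Mdr2+/+ livers H2-D1 was at 183 ± 48.6 CPM per kb, while H2-T23 (120 ± 10.4) and H2-K1 (98.1 ± 31.4) overlapped. Tapbp came next (37.2 ± 1.26 in Mdr2+/- and 48.6 ± 4.49 CPM per kb in Mdr2+/+ livers). Erap1, Tapbpl, Tap2 and Tap1 followed at 6.37 to 18.0 CPM per kb in Mdr2+/- and 12.8 to 20.2 CPM per kb in Mdr2+/+ livers, and Nlrc5 was lowest at 0.771 ± 0.117 and 1.73 ± 0.355 CPM per kb. B2m per kb was 5.16 to 5.36 times the sum of H2-K1 and H2-D1 per kb in Mdr2+/- livers, a range inside the 4.63 and 6.13 of the Mdr2+/+ livers.

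**Figure D3:**
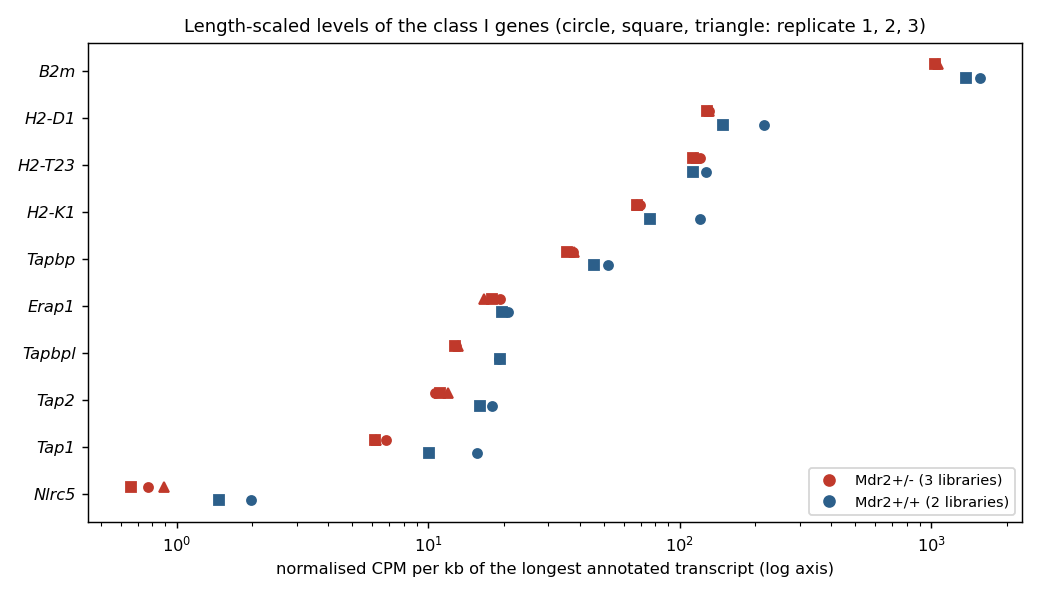
Normalised CPM per kb of the longest annotated transcript for each gene and library on a log axis, Mdr2+/- in red above Mdr2+/+ in blue. Levels run from Nlrc5, at a mean of 0.771 in Mdr2+/- and 1.73 in Mdr2+/+ livers, to B2m, at 1044 and 1469, and the order of the genes is nearly the same in both genotypes.

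Many other heavy chain genes were also lower. Of 13 tested rows, 6 fell (46.2%, against 5.41% of all tested genes) and 0 rose (median log2 fold change -0.44). H2-Q10, a secreted class I chain made mainly by the liver, fell furthest among those called (282, 318 and 273 CPM in Mdr2+/- livers, against 524 and 523 CPM in Mdr2+/+ livers; log2 fold change -0.85, SE 0.08, adjusted p = 0.000434 in edgeR). Its Mdr2+/+ libraries were nearly equal, and it was called in 13 of 13 alternatives, with log2 fold changes of -0.92 to -0.80. H2-Q2 had a row that did not pass (log2 fold change -0.38, adjusted p = 0.0774 in edgeR). H2-T22 and H2-T10, whose products bind gamma-delta T cell receptors, fell by 0.47 and 0.55 on the log2 scale. The other row of H2-Q2 fell by 0.43. These calls ended without Mdr2+/+ replicate 1 (adjusted p = 0.0684, 0.127 and 0.158), with log2 fold changes of -0.29, -0.30 and -0.27, and H2-T10 and H2-Q2 also lost theirs without some single Mdr2+/- libraries (adjusted p up to 0.0631). Without that Mdr2+/+ library 1 row of the list was called, and without Mdr2+/- replicate 3, 2 rows. Outside the H2 complex, 1 of 7 class I-like genes fell (14.3%), and 1 gene is no result about that list. This was Azgp1, the zinc-binding glycoprotein (log2 fold change -0.25, adjusted p = 0.047 in edgeR). Its call was lost without any Mdr2+/- library or Mdr2+/+ replicate 2 (0.077 to 0.222, log2 fold change -0.16 in the last case), with the replicate block (0.132) and with the offset for transcript length (0.255, log2 fold change -0.14). The neonatal Fc receptor gene Fcgrt, which also pairs with B2m, had a log2 fold change of 0.02 (adjusted p = 0.853), and was named after its value was seen.

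Transcripts of the inducible proteasome, which cuts many class I peptides, were lower. Of 6 genes of the inducible proteasome and its activator, 5 fell and 0 rose (median log2 fold change -0.90). That is 83.3% lower, against 5.41% of all tested genes. Psmb9 measured 25.1, 23.9 and 26.5 CPM in Mdr2+/- livers, against 78.2 and 55.5 CPM in Mdr2+/+ livers (log2 fold change -1.41, SE 0.13, adjusted p = 0.000448 in edgeR). Psmb10 (log2 fold change -1.08), Psmb8 (-1.12) and the activator subunit Psme2 (-0.73) fell as well, and these 4 were called in 13 of 13 alternatives. The subunits they replace fell less: Psmb6 by 0.28 and Psmb5 by 0.25 on the log2 scale, both lost with an offset for transcript length (adjusted p = 0.204 and 0.434, log2 fold changes -0.13 and -0.09). Psmb6 was also lost without Mdr2+/- replicate 2 (0.0548) or Mdr2+/+ replicate 1 (0.0736), and Psmb5 without any single library (0.0637 to 0.13). Cytosolic peptidases gave 0 lower and 1 higher of 8 (12.5%, against 6.63% of all tested genes), and 1 gene is no result about that list. The higher gene was Lnpep, an endosomal aminopeptidase (log2 fold change 0.56, adjusted p = 0.0196 in edgeR). Its call ended without either Mdr2+/+ library or without Mdr2+/- replicate 2 or 3 (0.054 to 0.104), and in DESeq2 (0.0733).

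Chaperones that fold class I chains gave 2 lower and 0 higher of 8. The luminal chaperone Hspa5 (log2 fold change -0.27, adjusted p = 0.0375) and the disulfide isomerase Pdia6 (-0.25, adjusted p = 0.0271) fell. Both calls were lost with any single library left out (0.0523 to 0.147). Calreticulin and the isomerase ERp57 of the loading complex itself did not pass (Calr log2 fold change -0.18, Pdia3 -0.17, adjusted p = 0.15 and 0.124; named after their values were seen).

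Of 23 regulator genes, 1 fell and 0 rose (4.35% lower, against 5.41% of all tested genes; median log2 fold change -0.0014), a share near the background. Irf9, a DNA-binding factor of the response to type I interferon, measured 18.8, 17.6 and 18.8 CPM in Mdr2+/- livers, against 32.2 and 22.96 CPM in Mdr2+/+ livers, with no overlap. It fell (log2 fold change -0.59, adjusted p = 0.0189 in edgeR), but not without Mdr2+/+ replicate 1 (-0.32, 0.127) or Mdr2+/- replicate 2 (0.0641). Irf1 measured 30.1, 21.2 and 22.9 CPM in Mdr2+/- livers, against 50.4 and 28.3 CPM in Mdr2+/+ livers, which overlapped and did not pass (adjusted p = 0.066). The RFX genes Rfx5, Rfxap and Rfxank, whose products sit with NLRC5 on the X box, had log2 fold changes of -0.17, 0.21 and 0.19 and did not pass (adjusted p = 0.523, 0.234 and 0.443). Irf1 and the RFX genes were named after their values were seen.

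**Figure D4:**
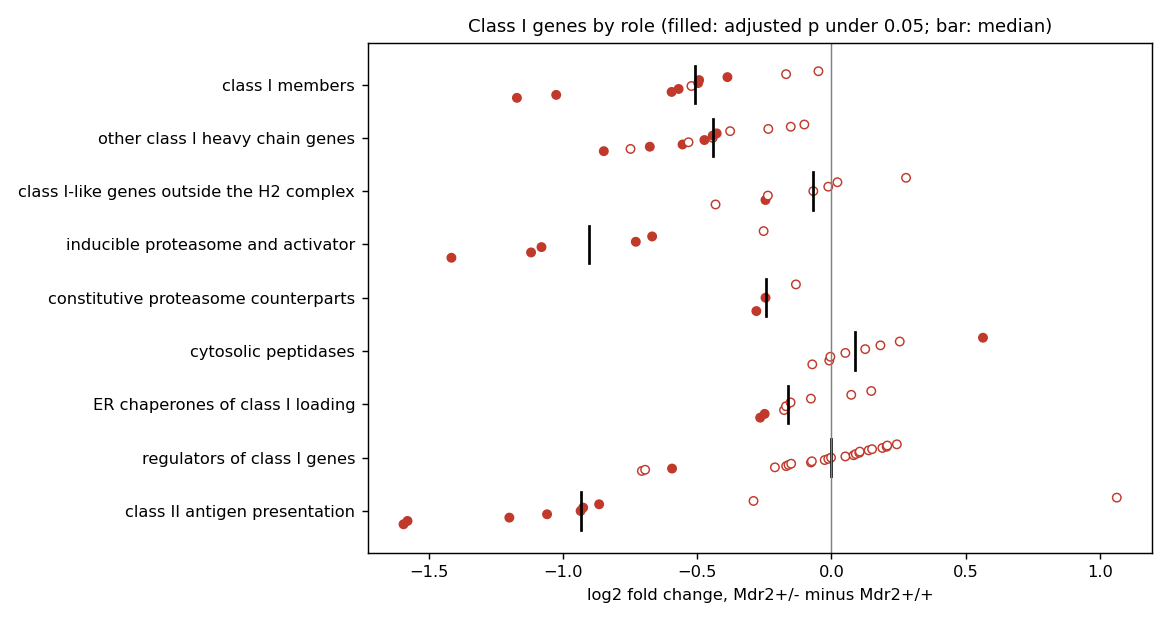
Log2 fold change (Mdr2+/- minus Mdr2+/+) of every tested gene in 9 lists around class I presentation, filled where the adjusted p is under 0.05, with the list's median as a bar. The inducible proteasome and class II lists have medians of -0.90 and -0.93, below the -0.51 of the 10 class I genes, while cytosolic peptidases and regulators have medians of 0.09 and -0.0014.

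Class II presentation, which serves CD4 T cells, gave 7 lower and 0 higher of 9 tested genes (median log2 fold change -0.93), and 4 lower without Mdr2+/+ replicate 1. With all 5 libraries 77.8% of the list was lower, against 5.41% of all tested genes. The list's summed level was 118 to 119.9 CPM in Mdr2+/- livers, against 258 CPM in Mdr2+/+ replicate 1 and 168 CPM in replicate 2. H2-DMb2, a peptide-exchange subunit, fell by 1.58, and H2-Ab1 and H2-Aa, a class II chain pair, fell by 1.20 and 0.86 on the log2 scale. The invariant chain gene Cd74 fell by 1.06, and by 0.67 without Mdr2+/+ replicate 1; robust limma ended its call (adjusted p = 0.0528). Class II genes are restricted to a few cell types, unlike class I.

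The class I genes lie on 5 chromosomes. Of the 6 genes on chromosome 17, 4 fell, as did 3 of the 4 on other chromosomes. Between Tapbp and H2-T23 (chromosome 17, 33915899 to 36032855, mm10) lay 80 tested genes of none of the presentation lists, of which 7 were higher and 7 lower in Mdr2+/- livers (8.75% each, against 6.63% and 5.41% of all tested genes), with a median log2 fold change of -0.05. These shares are near those of all tested genes and are not a result about the region. Named by the smallest p-values, the tubulin gene Tubb5 (log2 fold change -0.46), the class II gene H2-Ea-ps (-0.90) and the ribosomal protein gene Rps18 (-0.34) fell. The complement gene C4a rose (0.61). H2-Ea-ps has its pseudogene symbol from the reference, and whether it is a working gene in BALB/c was not tested. C4a has a near-identical copy in C4b, so its counts are uncertain, and Rps18 was lost with the length offset (adjusted p = 0.0544). Without symbols that begin with H2, a restriction chosen after seeing the data, 76 genes remained, 7 higher and 5 lower.

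Between genotypes, cell type markers differed by lineage. Of all tested genes, 5.41% fell and 6.63% rose. Among T and natural killer cell genes 1 of 13 fell (7.69%), a share near that of all tested genes. Among Kupffer cell and macrophage genes 4 of 12 fell (33.3%), and among sinusoidal endothelial genes 3 of 10 (30.0%). Each of these lists had 0 higher. The endothelial sum was 390.2 to 419.6 CPM in Mdr2+/- livers, against 416 CPM in Mdr2+/+ replicate 1 and 428 CPM in replicate 2. Dendritic cell and cholangiocyte markers gave 0 calls of 6 each, and the cholangiocyte sum was 72.7 to 82.7 CPM in Mdr2+/- livers, against 81.8 and 94.2 CPM in Mdr2+/+ replicates 1 and 2. B cell markers rose in 7 of 10 cases, as did 7 of 10 neutrophil markers, and erythroid markers fell in 6 of 6 cases. Hepatocyte genes gave 2 higher and 2 lower of 10. No matched marker was at 0 in all libraries.

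Genes with the most similar profile were found by the root mean square distance from the median centred profile of the 10 genes over the 5 libraries, on log2 CPM. The nearest were Ppp1r14b (distance 0.0195), E130309F12Rik (0.0213), Tubb5 (0.0259), Ngfrap1 (0.0362) and Emp3 (0.0431), all with log2 fold changes between -0.51 and -0.46. B2m lay closest to the profile among the class I genes (0.0197), and Nlrc5 furthest (0.350), followed by Tap1 (0.276) and H2-T23 (0.217). Emp3 did not pass (adjusted p = 0.0536), and without Mdr2+/+ replicate 1 the calls of Ppp1r14b (0.0777), E130309F12Rik (0.107) and Ngfrap1 (0.0531) were lost. E130309F12Rik was also lost without Mdr2+/- replicate 2 (0.0564), and Ppp1r14b with the length offset (0.0556).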

How the data were processed

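Total RNA of snap-frozen liver was made into TruSeq RNA libraries and sequenced on an Illumina HiSeq, per the labels' protocols. TopHat and the mouse build mm10 are named in the submitters' processing notes; which version, counter, annotation and strand setting served is not given in the sources used here. The deposited values are unscaled estimated counts by Ensembl identifier, of which 33.9 to 37.3% of values above 0 are whole (tolerance 1e-06). Estimated counts were rounded and passed through filterByExpr (edgeR 4.0.16, minimum count 10); 13959 genes stayed, with 99.9% of counts, and scaled by TMM. Mdr2+/- was compared with Mdr2+/+ by glmQLFit and glmQLFTest with no covariate; SE is the log2 fold change over the root of F. R 4.3.3, limma 3.58.1 and DESeq2 1.42.0 were used. A floor of 3 counts equals 0.173 to 0.251 CPM per library, for counting error only. All pairs of libraries differed by more than sampling noise (chi-square per degree of freedom 5.30 to 8.86 within and 18.3 to 25.8 between genotypes). Positions and lengths came from GENCODE M21 on the same build, matched by identifier for 87.3% of rows.

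The 10 genes and all lists were chosen with earlier results of these data known, so they are no independent evidence of direction. A regulator gene is not reported here and is in no list count. The named genes were the 10, Abcb4, up to 4 called genes of each list and of the H2 neighbours by p-value, and the 5 with the nearest profile; the rule also allowed 2 markers per cell type, given here as sums. Alternatives were 2 filters, 2 scalings, DESeq2, robust limma-trend, a length offset, the replicate number as a block and each library left out. The procedure was run on simulated counts with 200 changed genes, drawn with a spread trend estimated from these data. Its outcome is not given here, and it cannot check the spread of single genes.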

Additional observations from a re-analysis of the deposited data

How the results depend on the processing

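With a library left out, the number of genes called ran from 697 to 1174 (345 to 670 higher and 352 to 504 lower), that of class I genes called lower from 5 to 8 with 0 higher, and that of class I genes with non-overlapping groups from 9 to 10 (9 under both scalings, and not recomputed for other tests, which leave the CPM as they are). Genes of the related lists called lower numbered 12 to 25 and higher 0 to 1, and H2 neighbours 4 to 8 lower and 1 to 5 higher. A lone Mdr2+/+ library is assumed there to vary like the others. Groups of fewer libraries separate more easily, and the share of all tested genes without overlap was not computed with a library left out. Abcb4 fell in every alternative, by 0.71 to 0.78 on the log2 scale. Class I genes called lower numbered 6 to 8 in the other alternatives. H2 neighbours called lower were 3 with the length offset, and those called higher 4 by library size alone and 4 in DESeq2. The single higher gene of the related lists became 2 with no low-count filter, 2 in robust limma, 0 in DESeq2 and 0 with the length offset. H2-K1 passed with no low-count filter (adjusted p = 0.000611) and with at least 10 counts in every library (0.0416); the log2 fold change of H2-T23 ran from -0.13 to 0.039 with a library left out, and its sign turned without Mdr2+/+ replicate 1 (0.039). The cause was not tested. The replicate numbers, shared by 2 pairs, do not pair the samples by any label (correlation of same-numbered deviations 0.0304 and 0.0286); with the replicate block 1277 genes and 7 class I genes were called. Groups of 2 and 3 libraries limit precision, and Nlrc5 rests on the fewest counts.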
